A study of Mus musculus with 11 samples.

Results

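The genes described are 10 members of the Bcl2 family, the proteins that set whether a cell lives or dies through its mitochondria: Bcl2, Bcl2l1, Mcl1, Bcl2a1b, Bcl2a1d, Bax, Bak1, Bcl2l11, Bbc3 and Bid. They were chosen by name, and each matched 1 of the 55487 gene IDs of the expression table. RNA was sequenced from bone marrow-derived macrophages of C57BL/6J mice aged 2 to 5 months, grown from marrow for 5 to 6 days in medium with 10% serum and 10% CMG-conditioned medium, a source of the macrophage growth factor M-CSF, and then moved to 2% of the conditioned medium. Of 11 libraries, 4 came from macrophages given 0.5 µg/ml CYR61 for 24 h and 7 from control macrophages given 0 µg/ml. CYR61 (CCN1) is a matrix-bound signalling protein that acts through integrins. No genotype beyond the strain is given for either group, and no vehicle is named for the controls. The labels leave out which mouse or culture each library is from. The p-values therefore describe the spread among these 11 libraries, and that spread may be technical only.

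Proteins of the Bcl2 family share short stretches called BH domains and act on one another at the outer mitochondrial membrane. The anti-apoptotic members (Bcl2, Bcl2l1, Mcl1 and the Bcl2a1 copies) hold the pore-forming effectors Bax and Bak1 in check. The BH3-only members (Bcl2l11, Bbc3 and Bid) respond to stress or lack of growth factor and either block the anti-apoptotic proteins or activate the effectors, after which cytochrome c leaves the mitochondria and caspases are activated. Mouse Bcl2a1 exists as several near-identical gene copies, is known for its expression in myeloid cells and is induced by inflammatory signals.

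The Bcl2a1 copies set a limit on the counts, so their sequences are shown first. The first 150 coding bases, the length of 1 sequencing read, are printed 5′ to 3′ in the sense direction from GENCODE M21 on GRCm38, with capitals at the 7 positions where the copies are not all alike.
Bcl2a1b, chr9:89199360-89199509, plus strand: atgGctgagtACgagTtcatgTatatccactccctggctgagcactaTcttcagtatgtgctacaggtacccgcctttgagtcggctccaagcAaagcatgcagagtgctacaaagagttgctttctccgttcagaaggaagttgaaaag
Bcl2a1d, chr9:88731570-88731719, minus strand: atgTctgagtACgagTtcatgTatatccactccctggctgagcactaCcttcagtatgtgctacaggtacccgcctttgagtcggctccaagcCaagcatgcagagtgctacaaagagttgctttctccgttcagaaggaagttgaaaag
Bcl2a1a, chr9:88957051-88957200, plus strand: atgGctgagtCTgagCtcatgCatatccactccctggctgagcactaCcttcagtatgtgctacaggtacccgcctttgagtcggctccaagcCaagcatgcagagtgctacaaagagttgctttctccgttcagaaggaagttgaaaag
Over their 516 coding bases, Bcl2a1b and Bcl2a1d differed at 6 positions (98.8% identity), and Bcl2a1a differed from Bcl2a1b at 11 and from Bcl2a1d at 7. Of all 150-base windows of the Bcl2a1b transcript, 14.2% were found letter for letter in the Bcl2a1d transcript. A single read from such a window could not be assigned to either copy. Reads came in pairs, and the other read of a pair may cover a differing position, so this is not the share of pairs that cannot be assigned. No source used here names the genome build or annotation behind the deposited counts, so these sequences describe the copies and not the authors' reference.

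The libraries held 17390272 to 20760322 counts with CYR61 and 14912123 to 21047654 in controls. Values are CPM (library-scaled counts, with TMM factors), and are given as mean ± SD with n = 4 CYR61 and n = 7 control libraries. Summed CPM of 8 macrophage marker genes was 24679 to 26893 in CYR61 libraries and 22311 to 23703 in controls. By test, 5 of the 8 were higher, while Mertk, Cd14 and Cd68 did not pass. Over all genes tested, 5.33% were higher. The 10 neutrophil and precursor markers summed to 70.3 to 82.9 CPM with CYR61 and 66.4 to 79.9 CPM in controls, nearly all of it from Csf3r, with Ly6g at 0 in every library. Of these, 1 of 2 markers tested was higher (S100a8). The 5 osteoclast markers summed to 28.9 to 34.2 CPM with CYR61 and 24.6 to 30.5 CPM in controls, and 1 of 3 tested was higher (Acp5). Summed markers of mast cells, B cells and T cells stayed under 0.95 CPM in every library. Dendritic cell markers summed to 1.33 to 2.05 CPM with CYR61 and 1.41 to 2.35 CPM in controls, with Siglech at 0 in all 4 CYR61 libraries and at 0.0494 to 0.459 CPM in controls, too low to be tested. Fibroblast and stromal markers summed to 0.176 to 1.23 CPM with CYR61 and 0.0656 to 1.74 CPM in controls. CYR61 replicate 4 stood apart, with 2.47% of its counts in ribosomal RNA genes, against 0.26 to 0.591% in the other CYR61 libraries and 0.286 to 0.884% in controls.

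Mcl1 was the member that passed the test. With p-values from edgeR's quasi-likelihood fit, adjusted over 15135 genes by the Benjamini-Hochberg method and read at a threshold of 0.05, 1 of 9 members tested was higher with CYR61 and 0 were lower, while 5.33% of all genes tested were higher, 2.63% were lower and 7.96% changed in either direction. With 9 members, 1 call (11.1%) is too few to set the family apart from that background. The median log2 fold change was -0.0015 over the 9 members and -0.0076 over all genes tested. At an unadjusted p under 0.05, 2 of 9 members differed (Mcl1 and Bak1), both higher. Between 2812 and 3164 of the 15135 genes tested reached that threshold, so 2 members do not stand apart from the background. By adjusted p, 0 members were called lower in any of 22 alternative analyses, DESeq2 and limma-voom included. Bcl2a1d was too low to be tested. In bulk RNA, fewer cells that express a gene and less of its RNA per cell cannot be told apart.

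**Figure D1:**
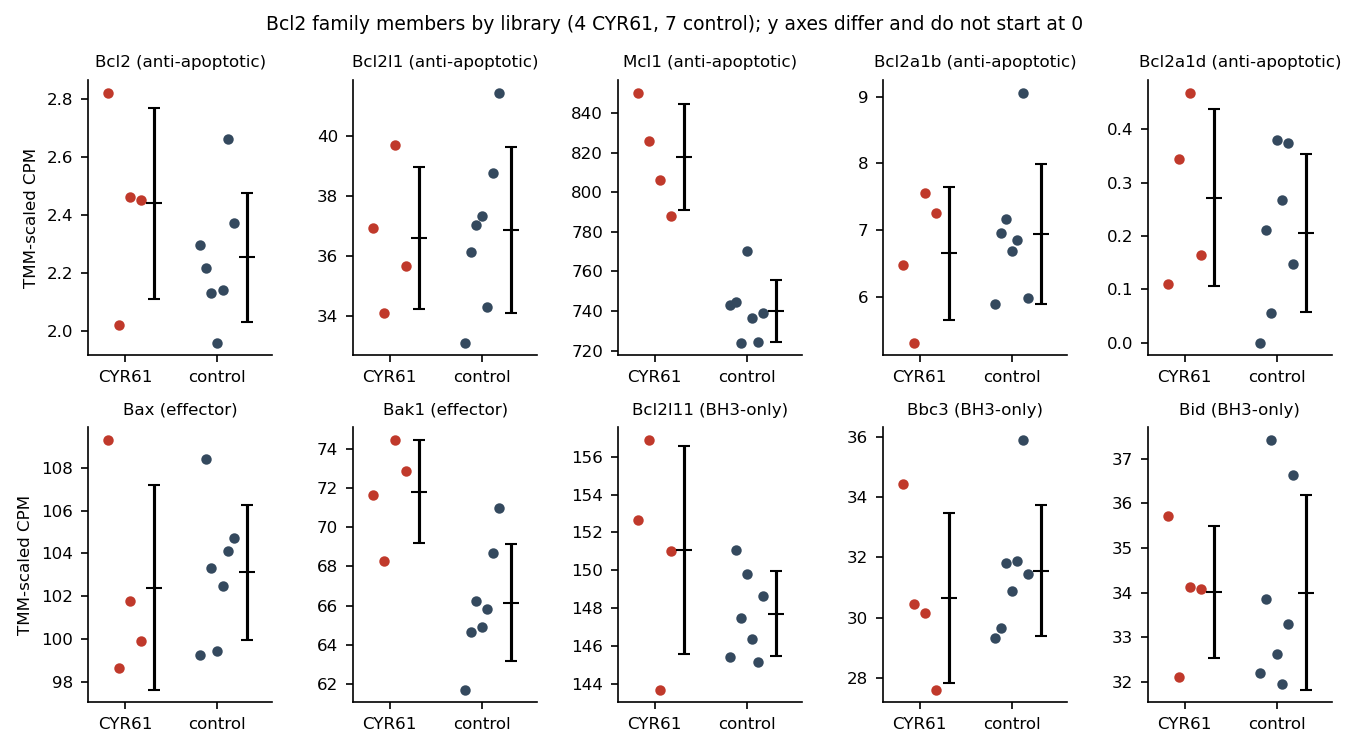
Level of each of the 10 members in TMM-scaled CPM (y axis, a separate scale in each panel that does not start at 0), with 1 point per library for 4 CYR61 libraries (red) and 7 control libraries (dark) and the mean ± SD beside them in black. The groups are separate in the Mcl1 panel, where CYR61 libraries lie at 788 CPM or above and controls at 770 CPM or below, and overlap in each of the other 9 panels.

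Among the anti-apoptotic genes, Mcl1 encodes a short-lived protein that restrains Bak1 and binds Bcl2l11. It stood at 850, 826, 806 and 788 CPM in CYR61 replicates 1 to 4, against 724 to 770 CPM in controls (median 739). All 4 CYR61 libraries lay above all 7 controls, as they did for 4.64% of all genes tested, while for 2.5% they lay below (7.15% in either direction). This separation rests on the TMM factors, which were 0.971 to 0.993 with CYR61 and 1.004 to 1.023 in controls. Scaled by total counts alone, CYR61 replicate 4 (14454 of 18891600 counts) lay below control replicate 4 (14163 of 18244169). Mcl1 averaged 818 ± 26.7 CPM with CYR61 and 740 ± 15.6 CPM in controls, a rise of 1.105-fold (log2 fold change 0.14, SE 0.029, 95% interval 0.083 to 0.20, adjusted p = 0.00369, edgeR). The rise was small beside others: 15.0% of the genes called higher had a smaller fold, and their median fold was 1.18. Mcl1 kept its call in 22 of 22 alternatives, with adjusted p from 3.40e-06 with DESeq2 to 0.0498 when libraries were scaled by size alone. Without CYR61 replicate 4 its log2 fold change was 0.16 (adjusted p = 0.00307, edgeR). The authors' deposited table gives Mcl1 a log2 fold change of 0.137 with an adjusted p of 1.28e-05. In the same libraries 5 of 8 macrophage markers were higher, as given above, and their part in this rise was not tested.

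The genes that moved most like Mcl1 over the 11 libraries were Tpm4, a tropomyosin, Ncf1, a subunit of the phagocyte NADPH oxidase, and Slc25a45, a mitochondrial carrier family gene. Likeness was the root mean square difference of log2 CPM after each gene was centred on its own mean. It was 0.027, 0.029 and 0.031 for these 3, against a median of 0.13 over the 13347 genes compared. The 3 were picked as the smallest values, so lying under the median was fixed by the choice and is not a test. Their log2 fold changes were 0.15, 0.11 and 0.12.

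The 250 bases before the RefSeq start of Mcl1 (chr3:95658471-95658720, plus strand, GRCm38.p6) are shown because Mcl1 was the member that passed the test. Capitals mark a match to an NF-kB-type motif that reads on the opposite strand.
Mcl1: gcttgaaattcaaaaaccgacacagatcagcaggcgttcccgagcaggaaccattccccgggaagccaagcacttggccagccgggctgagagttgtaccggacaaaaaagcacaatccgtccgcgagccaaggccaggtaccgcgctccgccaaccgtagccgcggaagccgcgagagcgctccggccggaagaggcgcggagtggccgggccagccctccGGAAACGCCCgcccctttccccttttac
Such a match stood in 1.41% of 32851 promoters of the same length, both strands searched, and in 3 of the 15 promoters listed for the 10 members (Mcl1, Bcl2l1 and Bbc3). The other motifs searched were TTCNNNGAA (STAT type, in 7.02% of promoters), the interferon-stimulated response element (2.98%), TGACGTCA (the cyclic AMP response element, 1.55%) and GAGGAAGT (PU.1 type, 2.44%). Of these, GAGGAAGT was found in the promoters of 3 members (Bak1, Bcl2a1b and Bcl2a1d) and the others in 0 of the 15. A match describes letters in a window and is not a site shown to be bound.

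Bcl2l1, which encodes Bcl-xL, did not pass. It stood at 36.9, 34.1, 39.7 and 35.7 CPM in CYR61 replicates 1 to 4 and at 33.1 to 41.4 CPM in controls (median 37.0). The groups overlapped fully, at 36.6 ± 2.37 CPM with CYR61 and 36.9 ± 2.77 CPM in controls (log2 fold change -0.016, SE 0.056, 95% interval -0.13 to 0.10, adjusted p = 0.915, edgeR). Bcl2, the founding member of the family, was near the low end of what could be tested, with 41 to 51 counts per library with CYR61 and 35 to 57.4 in controls. It stood at 2.82, 2.02, 2.46 and 2.45 CPM in CYR61 replicates 1 to 4 and at 1.96 to 2.66 CPM in controls (median 2.22). Those ranges overlap, and the interval of the log2 fold change was wide, at -0.18 to 0.40 around 0.11 (adjusted p = 0.739, edgeR). Bcl2 shares 558 exon bases with D630008O14Rik on the opposite strand. Its counts were fractional in control replicates 5, 6 and 7, the libraries where D630008O14Rik had counts (1.23 to 1.56).

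Bcl2a1b, one of the copies of the anti-apoptotic gene A1, stood at 6.48, 5.32, 7.56 and 7.25 CPM in CYR61 replicates 1 to 4 and at 5.90 to 9.06 CPM in controls (median 6.85). The groups overlapped, and control replicate 6 was the highest library. The log2 fold change was -0.073 (SE 0.12, 95% interval -0.33 to 0.18, adjusted p = 0.798, edgeR), and its sign turned when CYR61 replicate 2 or control replicate 6 was left out (0.026 and 0.0064). Bcl2a1d had 2.38, 7.38, 8.08 and 3.41 estimated counts in CYR61 replicates 1 to 4 and 0 to 8.10 in controls. These are values at or near 3 counts in several libraries. Without the filter on low counts, the fit gave it a log2 fold change of 0.36 with an SE of 0.55 (adjusted p = 0.786, edgeR), too wide to show a small or moderate difference.

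Reads were divided between the copies by the authors' counting. Bcl2a1b carried 93.6 to 98.0% of the estimated counts of the copies with CYR61 and 94.7 to 100% in controls. Bcl2a1d carried 2.00 to 6.40% with CYR61 and 0 to 5.31% in controls. The third copy, Bcl2a1a, was at 0 in every CYR61 library and at most 3.11 counts in a control, and Bcl2a1c was at 0 throughout, which allows up to 0.197 CPM in the shallowest library (3 counts, counting error only). The share of Bcl2a1d averaged 4.20 ± 2.26% with CYR61 and 2.84 ± 1.80% in controls, and did not differ by test (two-sided exact permutation over 330 splits, p = 0.3, adjusted over 3 copies p = 0.686, smallest possible p 0.00303). The summed estimated count of the 4 copies was whole, to within 0.02, in the 5 libraries where Gm29094 was at 0, and in 0 of the 6 where Gm29094 had counts. Gm29094 is an annotated transcript on the same strand that shares 401 exon bases with Bcl2a1b. Adding Gm29094 did not make the sum whole in any of those 6 libraries. In CYR61 replicate 2, the copies summed to 115.35 and Gm29094 had 3.16. The sum with Gm29094 is therefore not complete, and what else shared these reads was not tested. Summed as 1 feature, the copies had 6.93 ± 1.03 CPM with CYR61 and 7.19 ± 1.15 CPM in controls (log2 fold change -0.065, SE 0.12, adjusted p = 0.822, edgeR), and with Gm29094 added the log2 fold change was -0.092 (adjusted p = 0.718, edgeR).

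**Figure D2:**
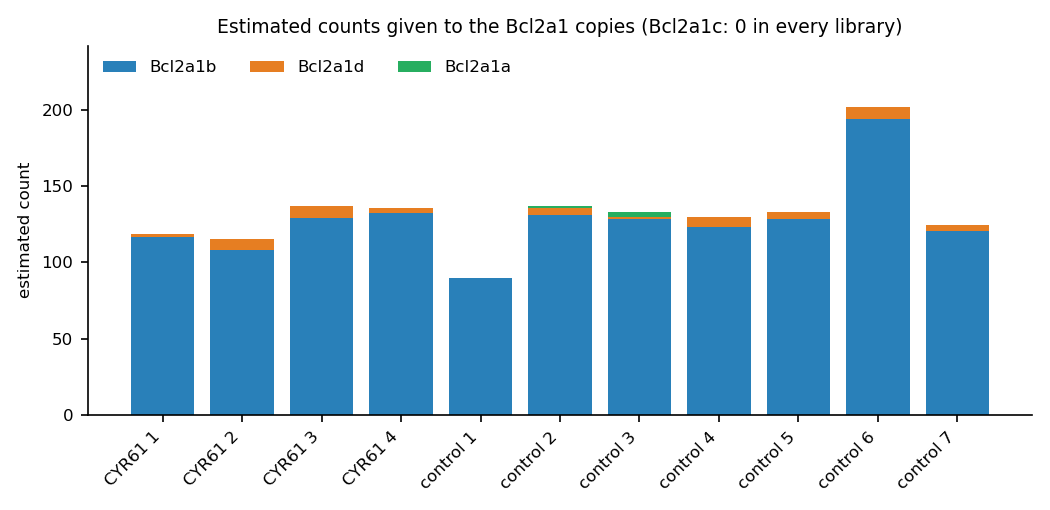
Estimated counts (y axis, from 0) given to Bcl2a1b, Bcl2a1d and Bcl2a1a in each library, stacked, with the CYR61 libraries left of the controls. Bcl2a1b makes up nearly all of each bar, and control replicate 6 is the highest, with 194 counts for Bcl2a1b.

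The 250 bases before the RefSeq start of both copies among the members (GRCm38.p6) are shown to set their promoters side by side, each in the direction of its own gene, with capitals on the motif GAGGAAGT.
Bcl2a1b, chr9:89199023-89199272, plus strand: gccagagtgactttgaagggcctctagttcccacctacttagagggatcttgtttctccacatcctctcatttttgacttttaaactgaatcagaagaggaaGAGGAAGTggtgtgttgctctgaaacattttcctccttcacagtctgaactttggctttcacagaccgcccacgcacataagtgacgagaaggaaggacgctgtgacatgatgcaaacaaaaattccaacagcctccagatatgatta
Bcl2a1d, chr9:88731851-88732100, minus strand: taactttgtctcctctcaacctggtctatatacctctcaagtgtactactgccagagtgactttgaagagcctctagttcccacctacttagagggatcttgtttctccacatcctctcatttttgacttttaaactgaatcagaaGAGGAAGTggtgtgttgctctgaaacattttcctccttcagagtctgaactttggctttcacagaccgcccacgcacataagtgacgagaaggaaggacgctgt
The motif began 148 bases before the listed start in Bcl2a1b and 104 bases before it in Bcl2a1d. The same letters also stood before Bcl2a1a and Bcl2a1c, which had few counts or none.

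Both effector genes encode the proteins that open the outer mitochondrial membrane. Bak1, which sits in that membrane and is held by Mcl1 and Bcl-xL, stood at 71.7, 68.3, 74.5 and 72.8 CPM in CYR61 replicates 1 to 4, against 61.7 to 71.0 CPM in controls (median 65.8). The groups overlapped through CYR61 replicate 2 at the low end and control replicate 7 at the high end. Bak1 averaged 71.8 ± 2.62 CPM with CYR61 and 66.1 ± 2.99 CPM in controls, and did not pass (log2 fold change 0.12, SE 0.038, 95% interval 0.037 to 0.20, adjusted p = 0.0697, edgeR). It passed without control replicate 7 (adjusted p = 0.0235, edgeR), and its adjusted p ran from 0.0215 to 0.258 over 22 alternatives. The authors' deposited table lists it with a log2 fold change of 0.12 and an adjusted p of 0.0156. The Bak1 exons overlap those of Ggnbp1 on the opposite strand, and the estimated counts of Bak1 were fractional in all 11 libraries. No source used here says whether the counting kept the strand, but reads were divided between Bid and Bcl2l13, also on opposite strands, as given below. For Bak1 and Ggnbp1 the fractional parts do not complete each other in any of the 11 libraries. Their estimated counts were 1294.19 and 68.18 in CYR61 replicate 1, and 940.72 and 72.77 in control replicate 1. Which genes shared reads with Bak1 was not tested. Ggnbp1 itself was low, at 3.96 ± 0.235 CPM with CYR61 and 4.25 ± 0.495 CPM in controls (adjusted p = 0.67, edgeR).

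Bax, the effector that moves from the cytosol to mitochondria on activation, stood at 109, 98.6, 102 and 99.9 CPM in CYR61 replicates 1 to 4, against 99.3 to 108 CPM in controls (median 103). Means were 102 ± 4.79 CPM with CYR61 and 103 ± 3.17 CPM in controls, with a narrow interval (log2 fold change -0.011, SE 0.034, 95% interval -0.083 to 0.061, adjusted p = 0.904, edgeR). Fold changes outside 0.944 to 1.04 lay outside that interval. Bax shares 192 exon bases with Gm45808 on the same strand. Its counts were fractional in CYR61 replicates 1 and 4 and control replicate 1, the libraries where Gm45808 had counts (7.32 to 10.92). The fractional parts of Bax and Gm45808 do not complete each other there, at 1974.15 and 10.36 in CYR61 replicate 1. A split of reads between these genes alone is therefore not shown.

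Of the BH3-only genes, 0 of 3 passed. Bcl2l11 encodes BIM, the member known to be induced when myeloid cells lose their growth factor. It stood at 153, 157, 144 and 151 CPM in CYR61 replicates 1 to 4 and at 145 to 151 CPM in controls (median 147). CYR61 libraries held both the highest and the lowest value (log2 fold change 0.033, SE 0.029, 95% interval -0.029 to 0.094, adjusted p = 0.588, edgeR). Bbc3, which encodes PUMA, a target of p53, stood at 34.4, 30.4, 30.1 and 27.6 CPM in CYR61 replicates 1 to 4 and at 29.3 to 35.9 CPM in controls (median 31.4). The groups overlapped (log2 fold change -0.045, SE 0.061, 95% interval -0.17 to 0.084, adjusted p = 0.744, edgeR). Bid, which caspase-8 cuts to carry a death receptor signal to mitochondria, stood at 35.7, 32.1, 34.1 and 34.1 CPM in CYR61 replicates 1 to 4 and at 31.9 to 37.4 CPM in controls (median 33.3). Its means were equal to 3 digits, at 34.0 ± 1.47 CPM with CYR61 and 34.0 ± 2.18 CPM in controls (log2 fold change -0.0015, 95% interval -0.11 to 0.10, adjusted p = 0.993, edgeR). Bid shares 628 exon bases with Bcl2l13 on the opposite strand. In CYR61 replicate 4, Bid had 624.58 estimated counts and Bcl2l13 had 741.42. The 2 genes had 642.02 and 785.98 in control replicate 2, and 741.29 and 831.71 in control replicate 7. Counts of both were whole in the other libraries. The fractional parts complete each other, so the counting divided reads between these genes on opposite strands.

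**Figure D3:**
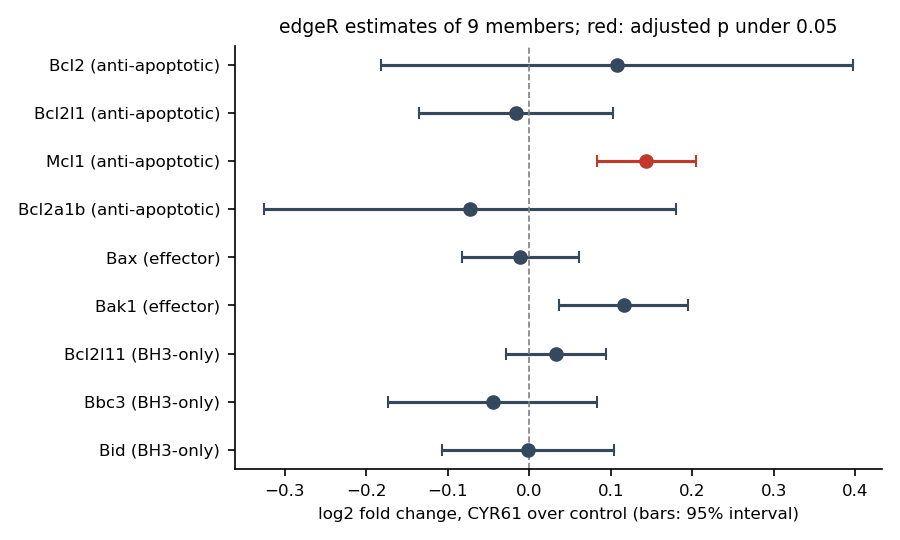
Log2 fold change of CYR61 over control (x axis) for the 9 members tested, with 95% intervals from the edgeR fit as bars and the member past the threshold in red. The intervals of Mcl1 and Bak1 lie above 0 and those of the other 7 include it; Bcl2 and Bcl2a1b have the widest.

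Set against one another per exon length (CPM per kilobase of annotated exon, GENCODE M21), Mcl1 was the highest member, at 239 ± 7.81 with CYR61 and 217 ± 4.58 in controls. Bax followed at 65.0 ± 3.04 with CYR61 and 65.4 ± 2.01 in controls, then Bak1 at 29.8 ± 1.09 with CYR61 and 27.5 ± 1.24 in controls. Bcl2l11 had 18.8 ± 0.685 with CYR61 and 18.4 ± 0.278 in controls, and Bbc3 had 14.4 ± 1.33 with CYR61 and 14.9 ± 1.02 in controls. Each of these 5 stood above the next member in every library of either group. Bid, Bcl2a1b and Bcl2l1 lay close together at 9.58, 8.14 and 7.98 with CYR61 and 9.58, 8.50 and 8.04 in controls, and the libraries of Bid and Bcl2a1b, and of Bcl2a1b and Bcl2l1, overlapped. Bcl2 and Bcl2a1d were lowest, at 0.266 and 0.315 with CYR61 and 0.246 and 0.238 in controls, and overlapped as well. Among the 5 anti-apoptotic genes of the 10 members, Mcl1 made up 93.5 ± 0.742% of the summed level per kilobase with CYR61 and 92.7 ± 0.728% in controls. This sum leaves out Bcl2l2, an anti-apoptotic gene outside the members, at 35.7 CPM with CYR61 and 34.5 CPM in controls. The share of Mcl1 over all anti-apoptotic genes would be lower. These levels rest on the annotated exons, which need not be the forms present in these cells.

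**Figure D4:**
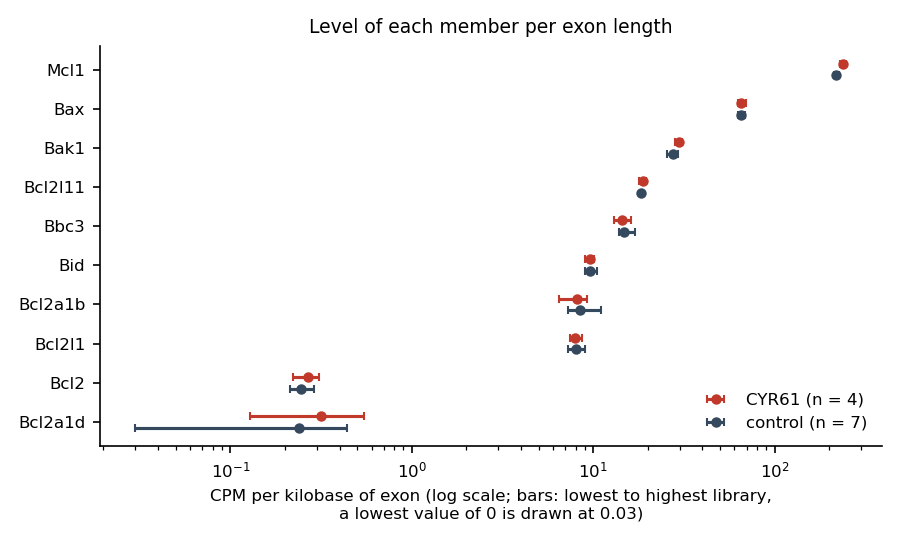
Mean CPM per kilobase of exon (x axis, log scale) of each member in CYR61 libraries (red, n = 4) and control libraries (dark, n = 7), with bars from the lowest to the highest library. Mcl1 stands highest at 239 with CYR61 and 217 in controls, and Bcl2 and Bcl2a1d stand lowest, under 0.55 in every library.

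Ratios between members within a library were read across libraries only, since CPM of different genes are not on 1 length scale. Of 5 ratios computed, 1 separated the groups: Mcl1 over Bcl2l11 was 5.57, 5.26, 5.61 and 5.22 in CYR61 replicates 1 to 4 and 4.91 to 5.14 in controls. Mcl1 over Bak1 was 11.4 ± 0.676 with CYR61 and 11.2 ± 0.631 in controls, and overlapped, as did Mcl1 over Bbc3, Bak1 over Bax and Bcl2l1 over Bax. The ratios were chosen with the members' values known and were not tested.

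Outside the 10 members, other genes of the family were taken from fixed lists. Of these 16, 8 could be tested, of which 0 were higher and 1 was lower, beside 5.33% and 2.63% of all genes tested. Pmaip1, which encodes the BH3-only protein NOXA, known for binding Mcl1, stood at 5.26, 4.33, 5.34 and 5.13 CPM in CYR61 replicates 1 to 4, against 5.62 to 8.97 CPM in controls (median 6.96). All CYR61 libraries lay below all controls, and it fell by 0.46 on the log2 scale (SE 0.12, adjusted p = 0.0232, edgeR). Its call was lost without CYR61 replicate 2 (adjusted p = 0.109) or CYR61 replicate 4 (adjusted p = 0.0521), and the adjusted p ran from 0.00872 to 0.109 over 22 alternatives. Of the rest, the anti-apoptotic Bcl2l2 (Bcl-w) stood at 35.7 CPM with CYR61 and 34.5 in controls, and the BH3-only genes Bad and Bmf at 27.2 and 57.5 CPM with CYR61 and 26.1 and 59.1 in controls, and none of these passed. Bcl2l12, Bcl2l13, Bnip3 and Bnip3l did not pass either, with log2 fold changes of -0.13 to -0.00041. Bik, Bcl2l14, Bcl2l15, Bcl2l10, Bok and Hrk had at most 9 counts in any library and were not tested.

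Genes that act before and after the family at mitochondria were read the same way. In the list of apoptosome, caspase and inhibitor genes, 1 of 12 was higher and 0 lower, beside 5.33% and 2.63% of all genes tested. Birc3, which encodes the ubiquitin ligase cIAP2, rose 1.13-fold, at 63.0 ± 4.78 CPM with CYR61 and 56.1 ± 2.97 CPM in controls (adjusted p = 0.0338, edgeR). The groups of Birc3 overlapped, its counts were fractional in every library, and its call was lost in 9 of 22 alternatives, among them leaving out CYR61 replicate 2 or 4 or control replicate 3, 4, 5 or 6 (adjusted p = 0.116 without CYR61 replicate 4, and 0.0116 to 0.174 over the 22). Casp9, Casp6, Apaf1, Cycs, Diablo, Htra2, Xiap, Birc2, Birc5, Aifm1 and Endog did not pass.

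In the death receptor list, 2 of 9 tested were higher and 0 lower, beside 5.33% and 2.63% of all genes tested. With 9 genes, 2 calls are too few to set the list apart from that background. Tnfrsf1a, the main receptor for TNF, stood at 145, 150, 149 and 142 CPM in CYR61 replicates 1 to 4, against 126 to 134 CPM in controls (median 130). The groups did not overlap (1.13-fold, log2 fold change 0.18, SE 0.029, adjusted p = 0.000518, edgeR), and the call held in 22 of 22 alternatives. Casp8, which cuts Bid, rose 1.09-fold, at 57.5 ± 3.41 CPM with CYR61 and 52.6 ± 1.39 CPM in controls (adjusted p = 0.0466, edgeR). That call was lost in 12 of 22 alternatives, limma-voom and leaving out CYR61 replicate 2 or 3 or control replicate 1, 3, 4, 5 or 6 among them (adjusted p 0.0136 to 0.184 over the 22). Among 11 regulators of Bcl2 family proteins, 1 was higher and 0 lower. Tmbim6, which encodes BAX inhibitor 1 of the endoplasmic reticulum membrane, stood at 446, 429, 423 and 414 CPM in CYR61 replicates 1 to 4, against 374 to 409 CPM in controls (median 388, adjusted p = 0.00971, edgeR). Its groups did not overlap, and its call was lost when libraries were scaled by size alone (adjusted p = 0.0819, against 0.000187 with DESeq2, the ends of the range over 22 alternatives). Huwe1, Usp9x, Fbxw7 and Marchf5, which act on the turnover of Mcl1 protein, did not pass, nor did Trp53, Foxo1, Foxo3, Vdac1, Vdac2 or Vdac3.

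Over all 40 genes of these lists tested, 4 were higher (10%) and 1 was lower, beside 5.33% and 2.63% of all genes. Their median log2 fold change was 0.031, against -0.0076 over all genes tested. Leaving out CYR61 replicate 2 left 2 higher and 0 lower, leaving out control replicate 3, 4, 5 or 6 left 2 higher, and leaving out control replicate 1 gave 2 lower. With libraries scaled by size alone, 1 was higher and 3 were lower.

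**Figure D5:**
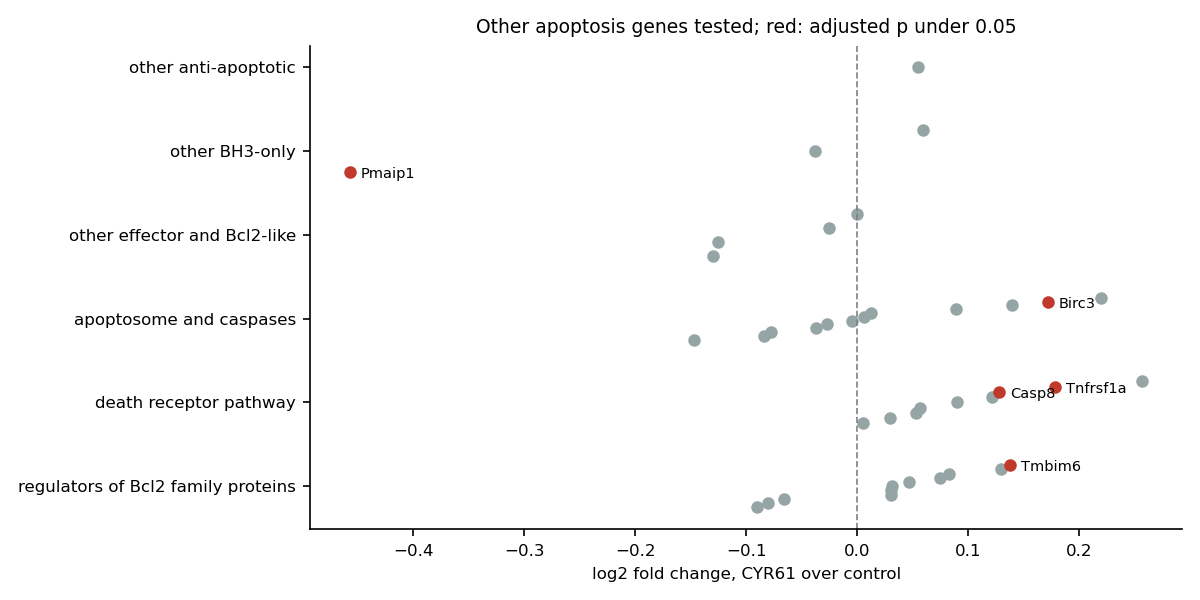
Log2 fold change of CYR61 over control (x axis) for the 40 tested genes of the fixed lists (rows), with 1 point per gene and genes past the threshold in red and named. Pmaip1 is the one red point left of 0, at -0.46, and the 4 red points right of 0 lie at 0.18 or below.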

How the data were processed

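RNA was measured in 4 CYR61 and 7 control libraries. Ribosomal RNA was depleted, cDNA was primed with random hexamers, and reads were pairs of 150 bases, per the labels' protocols, so unspliced RNA can enter the counts. DRAGEN is the tool named, per the submitters' processing notes. Neither its version nor its role is stated, and no source names a build or gene annotation. The authors deposited expected counts (estimated counts) per Ensembl gene, not normalized. A second table that the authors deposited holds their CYR61 comparison: log2 fold changes, log2 CPM, p-values and scores per gene; only its log2 fold changes and adjusted p-values are quoted. Of 55774 rows, 287 repeated rows were dropped.

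Estimated counts were rounded to whole numbers. The test was that of edgeR 4.0.16 under R 4.3.3 (filterByExpr, minimum count 10, TMM, glmQLFit and glmQLFTest, two-sided, no covariates, Benjamini-Hochberg over 15135 genes, threshold 0.05). Standard errors are the absolute log2 fold change over the square root of F, and 95% intervals use the t quantile. The common biological coefficient of variation was 5.64%. The code was tested on simulated data. Alternatives were DESeq2 1.42.0, limma-voom (limma 3.58.1), other scalings and filters, removal of mitochondrial and ribosomal RNA genes, summed Bcl2a1 copies, a replicate block and leaving out each library; the sum with Gm29094 was chosen after seeing the data. Similar transcripts were found with BLAST+ 2.17.0 (at least 95% identity over 100 bases). Promoters are RefSeq's (GRCm38.p6) and matched all 10 members by symbol. No pair of libraries in a group agreed within sampling noise (chi-square per gene at least 2.90). Pairs with CYR61 replicate 4 gave 19.2 to 33.4, against 3.48 to 9.07 among the other CYR61 libraries and 2.90 to 10.6 among controls.

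Named genes are all 10 members, every other family gene listed, each further list gene past the threshold and, for the member that passed, the 3 nearest genes of at least 1 CPM (log2 CPM with 0.5 added). Of the fixed lists, 2 genes are not reported here and are left out of the lists' counts. The members and lists were chosen with earlier results of these data known.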

Additional observations from a re-analysis of the deposited data

Results flagged for a closer look

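Of the values examined, 2 stood apart within the control group, both in control replicate 6. Bcl2a1b was 9.06 CPM there, with the next control at 7.17 CPM, and the gap took 0.598 of the range of the group, above Dixon's limit for 7 samples. Bbc3 was 35.9 CPM in the same library, with the next control at 31.9 CPM, a gap of 0.609 of the range. Chance gives about 1 such value in 20 groups, and 30 groups were looked at. Without control replicate 6 neither gene passed the test.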

How the results depend on the processing

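Mcl1 remained higher and past the threshold in 22 of 22 alternatives, with log2 fold changes of 0.099 to 0.16. The count of members higher was 1, and became 2, through Bak1, with the replicate block on libraries 1 to 4 of each group (2), in the same 8 libraries without the block (2), and in the leave-one-out analyses (1 to 2). No sign of pairing by replicate number was seen: deviations of same-numbered libraries correlated at -0.040 to 0.036 over 15135 genes, and 1 of 4 CYR61 libraries correlated best with its own number. With so few libraries and all genes weighed alike, this cannot exclude a shared mouse or culture. With libraries scaled by size alone, 529 genes were higher and 938 lower over all genes, 1 and 3 in the fixed lists, and the median log2 fold change of all genes moved to -0.052. Leaving out 1 library gave 583 to 903 genes higher and 205 to 469 lower, and in the lists 2 to 5 higher and 0 to 2 lower; the low ends came without CYR61 replicate 2 (in the lists, 2 higher also without control replicate 3, 4, 5 or 6). In the lists, 2 were lower with DESeq2 and 2 with a mean of at least 1 CPM.

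Of 196 comparisons of a member with an alternative, 176 kept sign and call, 3 gained a call and 17 changed sign, all in members that did not pass. Signs turned for Bax without CYR61 replicate 2 or 4 or control replicate 2 (0.0083, 0.0023 and 0.0039), for Bbc3 without CYR61 replicate 4, with the replicate block and in its libraries without it (0.0038, 0.0062 and 0.0094), and for Bcl2a1b without CYR61 replicate 2 or control replicate 6 (0.026 and 0.0064). They turned for Bcl2l1 with the replicate block, in its libraries without it and without CYR61 replicate 2 or control replicate 7 (0.024, 0.023, 0.019 and 0.014), for Bcl2l11 with scaling by size alone (-0.012), and for Bid without a filter and without CYR61 replicate 2 or control replicate 3 or 7 (0.0035, 0.027, 0.022 and 0.018). Leaving out 1 library gave -0.043 to 0.0083 for Bax, -0.10 to 0.0038 for Bbc3, -0.14 to 0.026 for Bcl2a1b, -0.056 to 0.019 for Bcl2l1 and -0.025 to 0.027 for Bid, all log2 fold changes. The cause was not tested. Depth limits Bcl2, Bcl2a1b and Bcl2a1d most.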
